A study of Mus musculus with 6 samples.

Results

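The tumor necrosis factor (TNF) superfamily comprises secreted and membrane-bound ligands and the receptors that bind them. Members were taken as the genes whose symbol begins with Tnfsf or Tnfrsf, together with Tnf, Fas, Fasl, Cd40, Cd40lg, Cd27 and Cd70. The mouse annotation used, of assembly GRCm38.p6, holds 40 such genes. Of these, 34 had a probe set of their own on the array (58 probe sets), out of 18096 named genes and 45101 probe sets in all, and 2 further probe sets were each shared by 2 members. Tnfsf18, Tnfsf15, Tnfrsf26 and Tnfsf13os had no probe set assigned to them, and Tnfsf12 and Tnfsfm13 were read only by shared probe sets. The genes were chosen by symbol, and the probe set that stands for a gene was selected on the highest mean log2 signal over all 6 arrays. For the test, this choice was made only among probe sets with enough Present calls, so calls that differ between genotypes could enter it. In 1 member, Tnfrsf11a, the tested probe set was not the brightest, and it had more Present calls in Spdef -/- than in Spdef +/+. The family itself was picked with earlier results of these arrays known, and its counts are given as a description.

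The arrays compare conjunctival epithelium of mice without and with Spdef, an ETS-family transcription factor required for mucus-secreting goblet cells, in 2 groups. The first group held 3 samples of Spdef -/- mice and the second 3 samples of Spdef +/+ mice, all C57BL/6 and 8 weeks old. Every sample combined an eye of 1 male with an eye of 1 female and is labelled a biological replicate. Frozen eyes with their lids were cut at 6 µm and stained, and a laser captured the 40% of the conjunctival epithelium that lies deepest in the fornix, the fold between lid and globe. The labels name no promoter or cell type that restricts the deletion.

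Signals are in linear dChip units, made by the authors from all probes of a probe set, and each comes with a detection call of Present, Marginal or Absent. The Spdef probe set read 1.00, 3.62 and 2.94 on the Spdef -/- arrays (all Absent) and 801, 689 and 587 on the Spdef +/+ arrays (all Present). It was 247.7-fold lower without the gene, with each Spdef -/- signal taken as no less than the dimmest Present signal of its array. Present calls numbered 23290 to 23370 per array in Spdef -/- and 24589 to 24833 in Spdef +/+ (exact permutation p = 0.1, 2-sided, the smallest that 3 against 3 arrays allow). Surface and basal epithelial markers were Present on all 6 arrays, with Krt13 at 10969 ± 1890 on Spdef -/- and 5245 ± 643 on Spdef +/+ arrays (SD, n = 3 each). The goblet mucin Muc5ac was Absent on all 3 Spdef -/- arrays (14.5 ± 7.86) and averaged 16558 ± 848 on the Spdef +/+ arrays (SD, n = 3 each). Spdef -/- replicate 3 stood apart in the Y-linked Eif2s3y, reading 57.9 where replicates 1 and 2 read 498 and 301 and the Spdef +/+ arrays read 458 to 566, although each pool is labelled as 1 male and 1 female. Counts of members that passed the test are therefore also given without it.

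TNF ligands are trimeric proteins that bring receptor chains together at the cell surface. Some receptors carry a cytoplasmic death domain and can start caspase activation or NF-kappaB signalling, others recruit TRAF adaptors directly, and decoy receptors bind ligand without passing on a death signal. In epithelia exposed to the outside the family is known for control of inflammation, of cell death and of exchange between epithelial and immune cells. Many of its ligands and costimulatory receptors are best known from lymphocytes, which lie within and below the conjunctival epithelium.

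To be tested, a gene needed a probe set with 3 or more Present calls among the 6 arrays. This held for 65.8% of all named genes and for 15 of the 34 members. Another 15 members were Absent on all 6 arrays, against 25.9% of all named genes, and 7 were Present on all 6. Of the 15 tested members, 8 were higher and 2 lower in Spdef -/- epithelium at an adjusted p under 0.05 (limma, Benjamini-Hochberg over 11899 tested genes), and 5 did not pass. Over all tested genes, 15.8% were higher and 24.0% lower, 39.7% in all. That split depended on scaling, at 2308 genes higher and 2359 lower with arrays centred on their medians and 2141 higher and 2476 lower after quantile normalization, against 1878 and 2850 as deposited. Members numbered 9 higher and 2 lower with centring and 8 higher and 2 lower after quantile normalization. Without Spdef -/- replicate 3, 7 members were higher and 2 lower. The passing members were Tnfrsf18, Tnfrsf11b, Tnfrsf12a, Tnfrsf11a, Tnfrsf23, Tnfrsf4, Tnfrsf1a and Tnfrsf22 upward, and Tnfrsf19 and Tnfsf10 downward. In a sample of many cells, fewer cells of a type and less RNA per cell cannot be told apart. Because dim genes enter the test through the genotype in which they are detected, the count of tested members is no count over the family.

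By role, the receptors gave most of the detected signals. Of 12 ligands with a probe set of their own, 9 were Absent on all 6 arrays and Tnfsf10 alone was tested. Of the 22 receptors, 14 were tested. All 3 decoy receptors were tested and higher, as was 1 of the 4 tested receptors with a death domain (Tnfrsf1a). Of the 7 tested receptors without a death domain, 4 were higher, 1 was lower and 2 did not pass. These counts stand against 15.8% higher and 24.0% lower over all tested genes. Of the decoys, Tnfrsf11b was tested through its Spdef -/- calls alone, and the Tnfrsf22 call was lost under 3 alternatives given below.

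**Figure D1:**
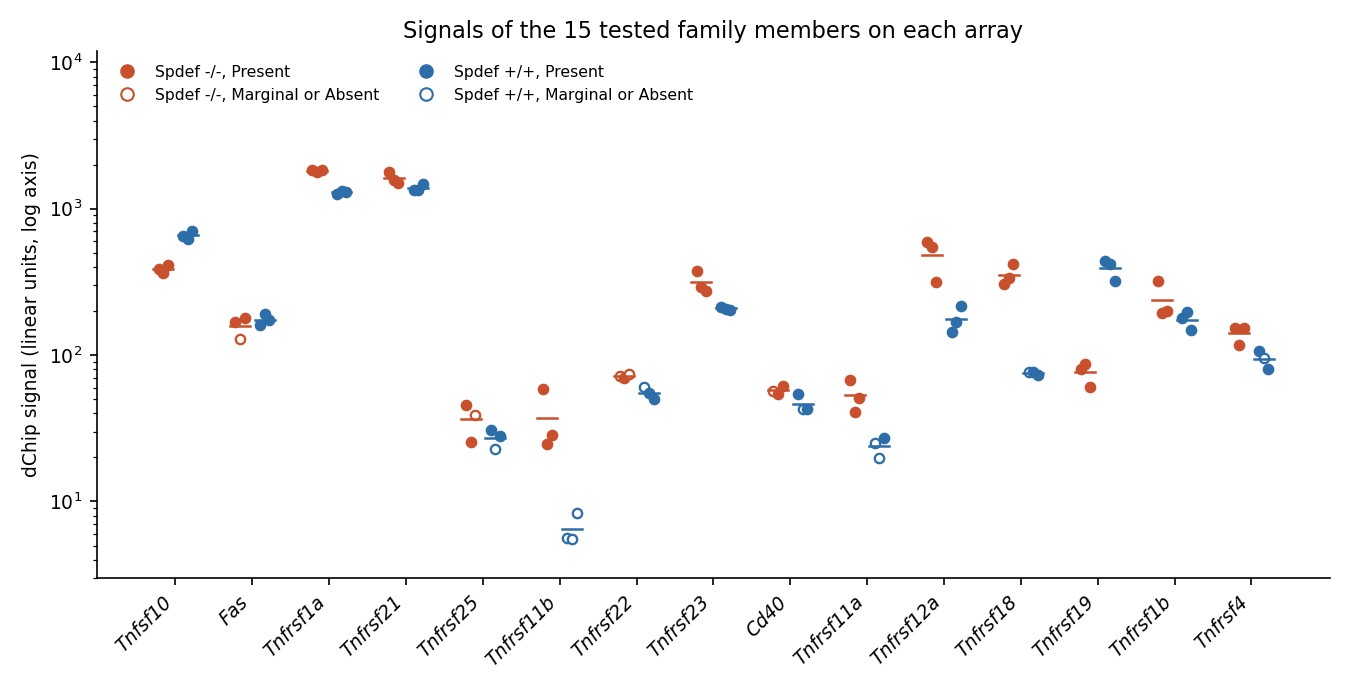
dChip signal (linear units, log axis) of each tested member on every array, Spdef -/- to the left of Spdef +/+ for each gene, with filled points for Present calls, open points for Marginal or Absent calls and a bar at the mean of 3 arrays. Genes run from the 1 ligand through receptors with a death domain and decoys to the other receptors. The groups do not overlap in 12 of the 15 genes, 10 higher and 2 lower in Spdef -/-.

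The signals of the 2 genotypes did not overlap in 12 of the 15 tested members, 10 of them higher and 2 lower in Spdef -/-. Over all tested genes, 22.6% lay wholly higher and 32.7% wholly lower in Spdef -/-. With the brightest probe set of each of the 34 members, detected or not, 14 lay wholly above, 3 wholly below and 17 overlapped, against 18.6% above and 23.7% below over all named genes. Fitted without a filter, 10 of the 34 members were higher and 2 lower, where 8.10% of all 18096 genes were higher and 11.1% lower. Of those 10, 6 were also higher with the filter and 4 (Tnfrsf13c, Cd27, Tnfsf9 and Tnfsf11) were Absent on all 6 arrays, while Tnfrsf4 and Tnfrsf11a no longer passed. The median log2 difference of the 34 members was 0.37, and that of all 18096 genes without a filter was -0.01.

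Promoter sequence is shown for 4 members with non-overlapping signals, to give the start region of the genes described below: Tnfrsf18 and Tnfrsf12a, which were higher, and Tnfrsf19 and Tnfsf10, which were lower in Spdef -/-. Each is a window of 300 bases, 250 before and 50 after the annotated start, printed 5′ to 3′ on the gene's strand, from RefSeq on GRCm38.p6. Windows were found for 26 of the 34 members (30 windows). Capitals mark matches on either strand to CCGGAA or CCGGAT, cores with which ETS factors are known to bind, without any measure of binding here. CCGGAA occurred in 14.9% and CCGGAT in 6.04% of all 32851 windows. Tnfrsf18 lies at chr4:156026072-156026371 (plus strand), Tnfrsf12a at chr17:23677400-23677699 (minus strand), Tnfrsf19 at chr14:61037938-61038237 (minus strand) (the one of its 2 windows with a match) and Tnfsf10 at chr3:27316827-27317126 (plus strand).
Tnfrsf18: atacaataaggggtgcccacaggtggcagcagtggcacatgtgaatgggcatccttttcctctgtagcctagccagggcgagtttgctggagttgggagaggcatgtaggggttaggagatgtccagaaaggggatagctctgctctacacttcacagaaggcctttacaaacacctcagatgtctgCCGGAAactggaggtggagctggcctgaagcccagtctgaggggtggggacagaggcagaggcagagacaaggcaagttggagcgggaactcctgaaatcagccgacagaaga
Tnfrsf12a: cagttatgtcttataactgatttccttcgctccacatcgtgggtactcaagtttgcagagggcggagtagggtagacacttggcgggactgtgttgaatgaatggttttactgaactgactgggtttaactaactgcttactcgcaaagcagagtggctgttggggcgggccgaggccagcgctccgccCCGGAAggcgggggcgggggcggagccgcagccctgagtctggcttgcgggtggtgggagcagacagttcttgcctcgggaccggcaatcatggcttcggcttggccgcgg
Tnfrsf19: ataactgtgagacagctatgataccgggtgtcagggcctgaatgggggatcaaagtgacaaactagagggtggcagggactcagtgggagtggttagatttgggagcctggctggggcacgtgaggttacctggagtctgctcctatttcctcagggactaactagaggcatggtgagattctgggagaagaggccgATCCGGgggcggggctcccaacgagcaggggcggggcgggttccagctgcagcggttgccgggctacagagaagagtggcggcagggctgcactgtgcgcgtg
Tnfsf10: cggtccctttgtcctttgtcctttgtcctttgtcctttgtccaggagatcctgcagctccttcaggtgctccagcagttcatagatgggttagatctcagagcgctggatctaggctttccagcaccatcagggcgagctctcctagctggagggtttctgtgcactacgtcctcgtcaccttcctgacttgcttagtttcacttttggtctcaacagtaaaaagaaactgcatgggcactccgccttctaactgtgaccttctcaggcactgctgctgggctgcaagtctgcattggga
CCGGAA stood once in the Tnfrsf18 window, beginning at position -63 from the start, and once in the Tnfrsf12a window, beginning at -61. The Tnfrsf19 window held CCGGAT on the opposite strand, printed here as ATCCGG, beginning at -53. Tnfsf10 had neither match, which says only that these letters are not in this window. Among all members with a window, CCGGAA was found for Tnfrsf12a, Tnfrsf18, Tnfrsf1a and Tnfrsf1b, and CCGGAT for Tnfrsf19 and Tnfrsf8. A kappaB consensus was found in 4.51% of all windows and in those of Tnfrsf8 and Tnfrsf9, and TGANTCA, the AP-1 core, in 7.81% of all windows and in those of 6 members.

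Tnfrsf18 encodes GITR, a costimulatory receptor known from regulatory and activated T cells. It read 307, 335 and 419 on the Spdef -/- arrays, all Present, and 76.1, 76.5 and 72.6 on the Spdef +/+ arrays, 1 of them Absent. Every Spdef -/- array lay far above every Spdef +/+ array, and the Spdef +/+ values lay close together. The difference was 4.67-fold (95% interval 3.79 to 5.75, adjusted p = 0.000152, limma). Its neighbour on chromosome 4 among protein-coding genes is Tnfrsf4, which encodes OX40, a costimulatory receptor of activated T cells. Tnfrsf4 gave 152, 118 and 154 on the Spdef -/- arrays and 106, 95.2 and 80.6 on the Spdef +/+ arrays, where replicate 2 was Marginal and the other calls were Present. The groups did not overlap, and the difference was 1.50-fold (1.17 to 1.92, adjusted p = 0.0225, limma). That call was lost without a filter on dim probe sets (adjusted p = 0.0620), without Spdef -/- replicate 1 (0.0683) or 3 (0.0569), and without Spdef +/+ replicate 2 (0.0587) or 3 (0.0624), over a limma range of 0.0113 to 0.0683. The OX40 ligand Tnfsf4 was Absent throughout, with 32.7, 44.8 and 60.9 on Spdef -/- and 38.9, 34.5 and 36.3 on Spdef +/+ arrays, which overlap.

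T and NK cell markers are given beside these costimulatory receptors because both are known from T cells. Of the 10 markers, 6 were tested, 3 were higher (Cd3d, Cd3g and Lck), 1 was lower (Gzma) and 4 were Absent on all 6 arrays (Cd3e, Cd4, Klrk1 and Ncr1). These counts stand beside 15.8% higher and 24.0% lower over all tested genes. Cd3d, a chain of the T cell receptor complex, averaged 63.2 ± 4.10 on Spdef -/- and 28.1 ± 2.93 on Spdef +/+ arrays (SD, n = 3 each), with no Present call in Spdef +/+. It entered the test through its Spdef -/- calls alone. With Present calls required on at least 4 arrays, 1 of 3 tested markers was higher and 1 lower. The summed signal of the 10 markers ran from 494 to 584 on the Spdef -/- arrays and from 504 to 555 on the Spdef +/+ arrays, so the sums overlap. Gzma, a granule protease of killer cells, was the 1 marker called lower. With Gzma left out after its value was seen, the other 9 markers summed to 434 to 518 on the Spdef -/- arrays and 290 to 336 on the Spdef +/+ arrays. These do not overlap, but the separation rests on that choice, and the sums include the 4 markers Absent on all 6 arrays. The part of T cells in the Tnfrsf18 and Tnfrsf4 results was not tested.

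Tnfsf10 encodes TRAIL, a ligand that induces apoptosis through death receptors, and it was the only ligand with a probe set of its own that was detected on 3 or more arrays. It gave 386, 365 and 412 on the Spdef -/- arrays and 646, 625 and 702 on the Spdef +/+ arrays, all Present. The groups were well apart, with a difference of 1.70-fold downward (1.47 to 1.96, adjusted p = 0.00132, limma). Both of its other probe sets were Present on all 6 arrays and also lower. Probe set 1459913_at read 275, 290 and 263 on the Spdef -/- arrays and 531, 487 and 502 on the Spdef +/+ arrays (log2 difference -0.88, adjusted p = 0.00111, limma over all 21727 probe sets Present on 3 or more arrays). Probe set 1420412_at read 95.3, 85.8 and 64.9 on the Spdef -/- arrays and 160, 164 and 162 on the Spdef +/+ arrays (log2 difference -0.9995, adjusted p = 0.00397, limma over the same probe sets). The 3 probe sets thus fell in the same direction, with groups apart in each.

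Of the receptors that bind TRAIL in the mouse, the death receptor Tnfrsf10b was Absent on all arrays. Its brightest probe set gave 9.27, 22.6 and 21.5 on Spdef -/- and 33.9, 23.9 and 23.4 on Spdef +/+ arrays, and no fold is given for it. The decoy receptors were detected. Tnfrsf23 gave 375, 293 and 275 on the Spdef -/- arrays and 214, 207 and 203 on the Spdef +/+ arrays, all Present, 1.50-fold higher (1.21 to 1.85, adjusted p = 0.0128, limma). Its dim probe set 1422101_at, Absent on all 6 arrays, lay the other way, at 30.5, 30.3 and 32.1 on Spdef -/- and 35.3, 32.2 and 49.7 on Spdef +/+ arrays.

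Tnfrsf22, the neighbouring decoy gene on chromosome 7, gave 72.4, 70.2 and 74.4 on the Spdef -/- arrays and 60.4, 55.1 and 49.8 on the Spdef +/+ arrays. It was Present on 1 Spdef -/- and 2 Spdef +/+ arrays, so more often detected where its signal was lower. The groups did not overlap, and the difference was 1.32-fold (1.13 to 1.54, adjusted p = 0.0171, limma). The call was lost with trended and robust variance estimates (adjusted p = 0.0916), without Spdef -/- replicate 1 (0.05004) and without Spdef +/+ replicate 2 (0.0515), over a limma range of 0.00798 to 0.0916. Tnfrsf22 and Tnfrsf23 are closely related genes, and whether their probes read each other's transcripts was not tested.

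Tnfrsf11b encodes osteoprotegerin, a secreted decoy that binds RANK ligand and TRAIL. It read 58.2, 24.6 and 28.6 on the Spdef -/- arrays, all Present, and 5.62, 5.50 and 8.38 on the Spdef +/+ arrays, all Absent. Spdef -/- replicate 1 read the highest, and the groups did not overlap. It entered the test through its Spdef -/- calls alone. The fitted difference was 5.41-fold (95% interval 3.06 to 9.57, adjusted p = 0.00272, limma). No Spdef +/+ signal lay below the lowest Present signal of its array, so taking that signal as a floor left the fold unchanged. Fitted without a filter the gene passed as well (adjusted p = 0.0132, limma). With 32 added to every signal it was 0.81 on the log2 scale, 1.76-fold, and passed. Its other probe set, 1418309_at, was Absent on all 6 arrays, with 16.6, 9.34 and 8.74 on Spdef -/- and 7.01, 8.53 and 6.05 on Spdef +/+ arrays.

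Tnfrsf11a encodes RANK, the signalling receptor for the same ligand, and its 2 probe sets disagreed. Probe set 1430259_at gave 68.0, 40.6 and 50.5 on the Spdef -/- arrays, all Present, and 24.9, 19.9 and 27.1 on the Spdef +/+ arrays, of which the last was Present. This was 2.18-fold higher (1.54 to 3.08, adjusted p = 0.00713, limma). The brighter probe set, 1419214_at, was Present on 1 array of each genotype and gave 44.2, 22.3 and 56.9 on Spdef -/- against 51.1, 53.9 and 39.1 on Spdef +/+ arrays, which overlap. Fitted without a filter it differed by -0.31 on the log2 scale (adjusted p = 0.607, limma), within a range of 0.00529 to 0.607 over all alternatives for the gene. The direction for Tnfrsf11a thus depended on the probe set. RANK ligand itself, Tnfsf11, was Absent on every array, with 17.2, 21.9 and 22.4 on Spdef -/- and 11.7, 6.46 and 8.84 on Spdef +/+ arrays.

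Tnfrsf12a encodes Fn14, a small receptor inducible by injury and growth factors that binds TWEAK. It gave 589, 547 and 318 on the Spdef -/- arrays and 144, 168 and 215 on the Spdef +/+ arrays, all Present. Spdef -/- replicate 3 lay nearest the Spdef +/+ arrays, and the groups did not overlap. The difference was 2.70-fold (1.74 to 4.19, adjusted p = 0.00704, limma). Probe set 1418571_at gave 603, 599 and 297 on the Spdef -/- arrays, all Present, and 112, 174 and 199 on the Spdef +/+ arrays, all Absent. Its fitted difference was 3.03-fold upward (adjusted p = 0.0123, limma over 21727 probe sets). The same array order was thus seen in both, and the name of the brighter probe set, 1418572_x_at, carries the suffix for probes that may match other transcripts.

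The TWEAK gene Tnfsf12 was read only by probe set 1452440_at, which it shares with Tnfsfm13, a read-through gene of the same chromosome 11 cluster. That probe set gave 84.3, 93.5 and 67.5 on the Spdef -/- arrays and 186, 179 and 222 on the Spdef +/+ arrays, all Present. The groups lay well apart, 2.40-fold lower in Spdef -/- (1.88 to 3.07, adjusted p = 0.00146, limma with shared probe sets as entries of their own, added after the data were seen). The probe set does not separate Tnfsf12 from Tnfsfm13, so the lower signal cannot be assigned to either. Probe set 1418345_at, shared by Tnfsf13 (APRIL, a B cell survival ligand) and Tnfsfm13, gave 556, 449 and 359 on the Spdef -/- arrays and 445, 403 and 408 on the Spdef +/+ arrays. These overlap, with a log2 difference of 0.10 (95% interval -0.29 to 0.49, adjusted p = 0.666, limma in that fit).

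**Figure D2:**
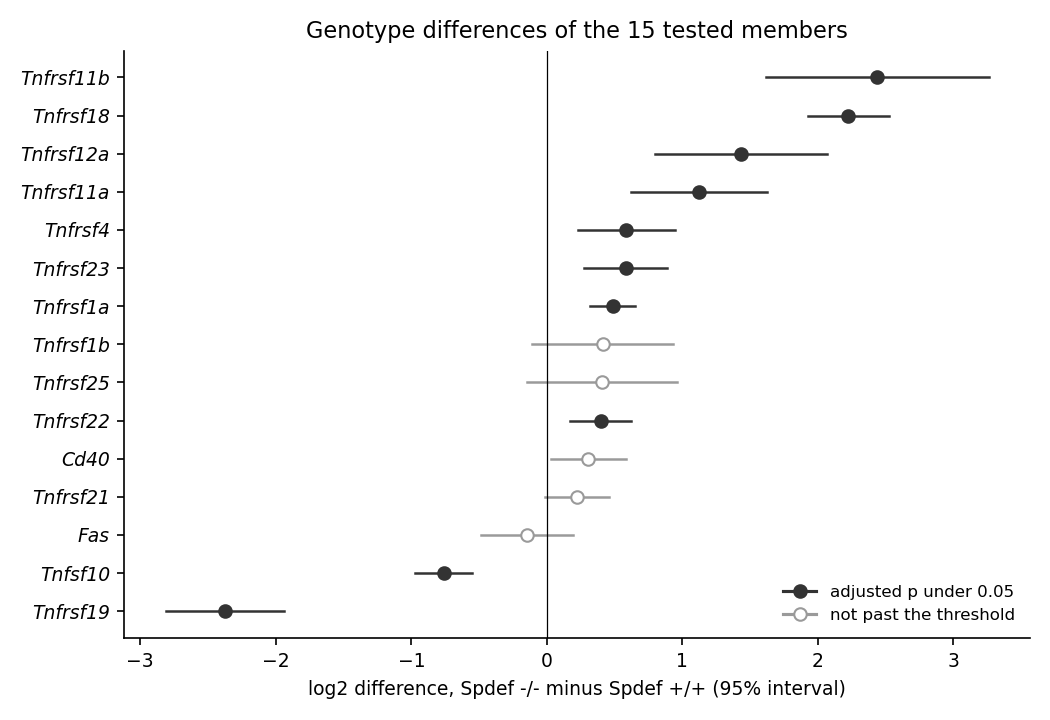
Log2 difference of each tested member, Spdef -/- minus Spdef +/+, as a point with its 95% interval from limma, on the signal floored at 1. Filled points passed the adjusted p threshold of 0.05 and open points did not; Tnfrsf11b is drawn at its fitted value although no Spdef +/+ array called it Present.

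Tnf, the founding ligand, was called Present on Spdef -/- replicates 1 and 2 and nowhere else, and was not tested. It gave 99.9, 73.2 and 14.7 on the Spdef -/- arrays and 17.3, 32.6 and 27.6 on the Spdef +/+ arrays. The third Spdef -/- array was lower than all Spdef +/+ arrays, so the groups overlap. Its main receptor Tnfrsf1a carries a death domain and is expressed by most cells. Tnfrsf1a gave 1826, 1778 and 1828 on the Spdef -/- arrays and 1260, 1315 and 1302 on the Spdef +/+ arrays, all Present. The spread within each genotype was small, and the difference was 1.40-fold (1.25 to 1.57, adjusted p = 0.00281, limma). The second TNF receptor, Tnfrsf1b, gave 319, 193 and 201 on the Spdef -/- arrays and 181, 197 and 147 on the Spdef +/+ arrays, which overlap. Its log2 difference of 0.41 had a 95% interval of -0.11 to 0.93 (adjusted p = 0.174, limma).

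The other tested receptors with a death domain did not pass. Fas, the receptor of Fas ligand, gave 167, 129 and 180 on the Spdef -/- arrays, the second of them Marginal, and 161, 190 and 172 on the Spdef +/+ arrays. They overlap, with a log2 difference of -0.15 (-0.49 to 0.20, adjusted p = 0.449, limma). Fasl was Absent on every array. Tnfrsf25 (DR3) gave 45.6, 25.5 and 38.9 on the Spdef -/- arrays and 30.8, 22.7 and 27.9 on the Spdef +/+ arrays, each genotype with 1 Absent call. The groups overlap, and the log2 difference of 0.40 did not pass (-0.15 to 0.96, adjusted p = 0.207, limma). It passed without Spdef -/- replicate 2 (0.0303), over a range up to 0.473.

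Tnfrsf21 (DR6) gave 1792, 1580 and 1494 on the Spdef -/- arrays and 1349, 1338 and 1480 on the Spdef +/+ arrays, all Present. The groups did not overlap, by a narrow gap, and the log2 difference of 0.22 did not pass (-0.01 to 0.45, adjusted p = 0.116, limma). Probe set 1422740_at of the same gene gave 452, 421 and 419 on the Spdef -/- arrays and 310, 271 and 338 on the Spdef +/+ arrays. That difference of 0.50 on the log2 scale passed over 21727 probe sets (adjusted p = 0.0146, limma), as did the gene with array weights (0.0272) and with the mean of its probe sets (0.0271), over a range up to 0.291.

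Tnfrsf19 encodes TROY, a receptor without a death domain known from hair follicles and from epithelial and neural progenitor cells. It gave 80.1, 87.6 and 60.6 on the Spdef -/- arrays and 442, 421 and 318 on the Spdef +/+ arrays, all Present. No other tested member fell as far, with a difference of 5.19-fold (3.83 to 7.03, adjusted p = 0.000392, limma). Probe set 1427600_at gave 23.1, 27.1 and 25.6 on the Spdef -/- arrays and 83.5, 84.7 and 72.5 on the Spdef +/+ arrays (log2 difference -1.67, adjusted p = 0.000301, limma over 21727 probe sets). Probe set 1425212_a_at gave 33.2, 26.6 and 51.3 on the Spdef -/- arrays, 2 of them Absent, and 77.9, 107 and 69.8 on the Spdef +/+ arrays (log2 difference -1.23, adjusted p = 0.0144, limma over the same probe sets). With the mean of the gene's tested probe sets the difference was 3.38-fold.

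Not every Tnfrsf19 probe set moved this way. Its 2 dimmest, 1415921_a_at and 1445949_at, were mostly Absent and overlapped between the genotypes. A further probe set, 1439032_at, has no gene ID in the files but names Tnfrsf19 in its description, and was looked at after its values were seen. It read 233, 309 and 241 on the Spdef -/- arrays and 262, 289 and 247 on the Spdef +/+ arrays, all Present and overlapping. Which transcript it reads was not tested. Spdef +/+ arrays held more signal of goblet and stromal markers: the 6 goblet markers summed to 1389 to 1779 on Spdef -/- and 30105 to 35764 on Spdef +/+ arrays, and the 7 stromal markers to 16947 to 19810 on Spdef -/- and 26532 to 40335 on Spdef +/+ arrays. None of the goblet or stromal markers was Absent on all 6 arrays. All 6 goblet markers and 4 of the 7 stromal markers were lower, where 24.0% of all tested genes were. With Present calls required on at least 4 arrays, 3 of 3 tested goblet and 4 of 7 stromal markers were lower. Fitted without a filter, 6 goblet and 3 stromal markers were lower, where 11.1% of all genes were. The part of goblet and stromal cells in the fall of Tnfrsf19 and Tnfsf10 was not tested.

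**Figure D3:**
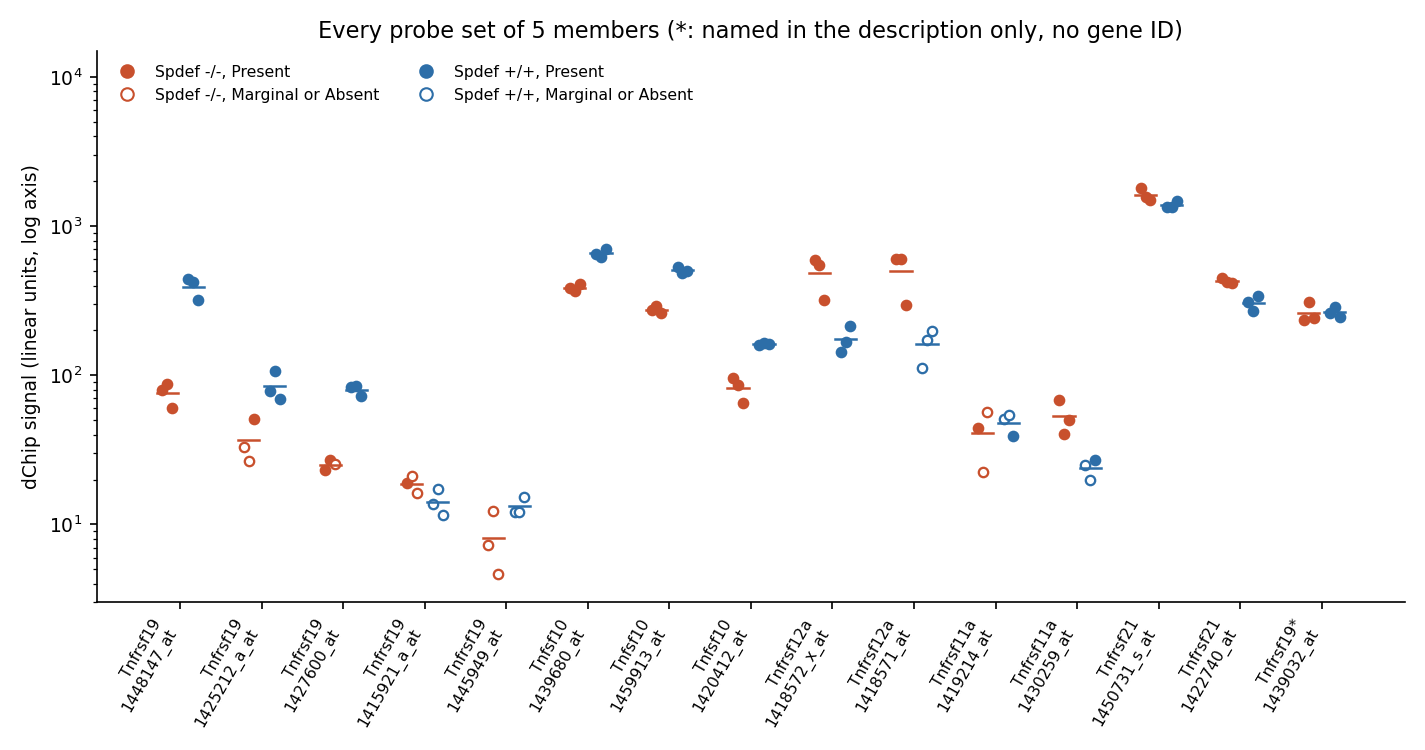
dChip signal (linear units, log axis) of every probe set of Tnfrsf19, Tnfsf10, Tnfrsf12a, Tnfrsf11a and Tnfrsf21 on every array, Spdef -/- to the left of Spdef +/+, with open points for Marginal or Absent calls and bars at means of 3 arrays. The probe sets of Tnfsf10 and Tnfrsf12a agree in direction, those of Tnfrsf11a do not, and the one marked with an asterisk, which names Tnfrsf19 only in its description, overlaps between the genotypes.

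Apart from the probe set that Tnfsf13 shares, the ligands BAFF and APRIL and their receptors were Present on at most 1 array. Tnfrsf13c, the BAFF receptor of mature B cells, gave 51.5, 73.6 and 62.6 on the Spdef -/- arrays and 7.07, 16.4 and 6.88 on the Spdef +/+ arrays. Every call was Absent, so it was not tested. It is the only member in the authors' deposited table of 153 probe sets, which gives it a fold of 6.44 with a lower bound of 3.71 and an unadjusted P of 0.006178. That table is labelled 3X and p 0.01. Tnfrsf18, Tnfrsf11b and Tnfrsf19 met a 3-fold difference and an unadjusted p up to 0.01 here (limma) but are not in it, and the reason was not tested. Tnfrsf13b (TACI) gave 57.6, 43.9 and 57.6 on the Spdef -/- arrays and 39.1, 34.6 and 30.3 on the Spdef +/+ arrays. One Spdef -/- array was Present, and the groups did not overlap. Tnfrsf17 (BCMA), Tnfsf13b (BAFF) and the Tnfsf13 probe set of its own were Absent throughout and overlapped.

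Cd40, a receptor of B cells, dendritic cells and some epithelia, was detected on 2 arrays of each genotype. It gave 56.9, 54.0 and 61.2 on the Spdef -/- arrays and 54.0, 43.1 and 42.9 on the Spdef +/+ arrays. The groups nearly touched, and the 1.23-fold difference (1.02 to 1.50) did not pass (adjusted p = 0.0778, limma). It passed with arrays centred on their medians (0.0397) and without Spdef +/+ replicate 1 (0.0355), over a range up to 0.284. Its ligand Cd40lg was Absent on all arrays. Of 9 B and plasma cell markers, 5 were tested, 3 were higher and none lower, and 4 were Absent on all arrays, Cd79a among them. By the same test, 15.8% of all genes were higher and 24.0% lower. With Present calls required on at least 4 arrays, 2 of 4 tested markers were higher. Fitted without a filter, 5 of 9 were, where 8.10% of all genes were. Cd79b, part of the B cell receptor complex, averaged 197 ± 17.8 on Spdef -/- and 65.6 ± 4.30 on Spdef +/+ arrays (SD, n = 3 each), and the 9 markers summed to 1112 to 1815 on Spdef -/- and 408 to 765 on Spdef +/+ arrays. The part of B cells in these values was not tested.

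The other costimulatory pairs were not detected on 3 or more arrays. Cd27, a receptor of T and B cells, was Absent everywhere, with 35.5, 26.5 and 28.2 on Spdef -/- and 10.3, 19.3 and 10.5 on Spdef +/+ arrays. Tnfsf9, the ligand of Tnfrsf9, was Absent everywhere too, with 28.3, 28.7 and 26.9 on Spdef -/- and 12.9, 12.3 and 8.31 on Spdef +/+ arrays. In both the groups did not overlap. Tnfsf8, the ligand of Tnfrsf8, was Present on Spdef -/- replicate 1 alone, with 51.4, 48.3 and 65.4 on Spdef -/- and 41.7, 57.3 and 40.7 on Spdef +/+ arrays, which overlap. Tnfrsf9 was Marginal on 2 Spdef +/+ arrays and Present on none. Cd70, Tnfrsf8, Tnfrsf14 and Tnfsf14 were Absent on every array and overlapped. Signals of the 15 members Absent everywhere ran from 1.00 to 73.6 with a median of 16.6, and 4 of these members (Tnfrsf13c, Cd27, Tnfsf9 and Tnfsf11) lay wholly higher in Spdef -/-, 1 (Tnfrsf10b) wholly lower, and 10 overlapped.

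**Figure D4:**
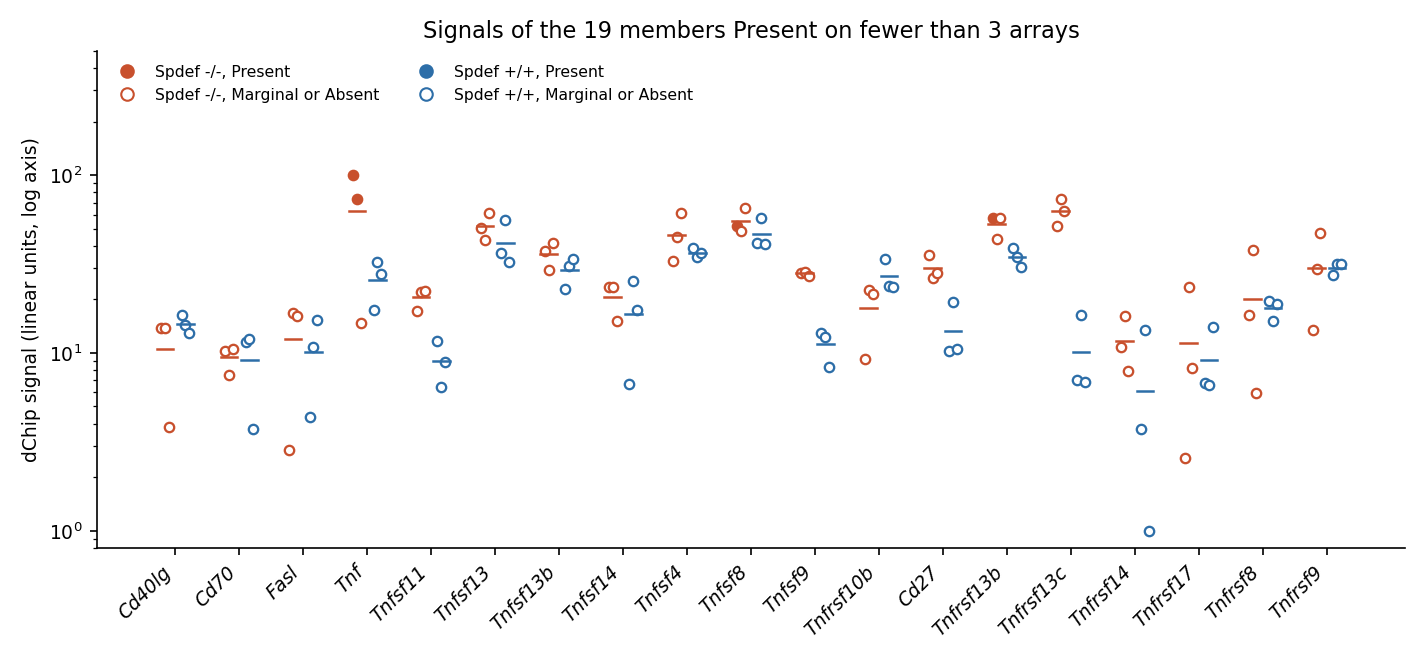
dChip signal (linear units, log axis) of the 19 members Present on fewer than 3 arrays, Spdef -/- to the left of Spdef +/+, ligands first and then receptors, with filled points for Present calls, open points for Marginal or Absent calls and bars at means of 3 arrays. Filled points appear only for Tnf, Tnfsf8 and Tnfrsf13b, all on Spdef -/- arrays.

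Family genes whose names lie outside the symbol rule were read as a list of 8, with 5 tested, 2 higher and 1 lower. Over all tested genes, 15.8% were higher and 24.0% lower. The lymphotoxin subunit Ltb averaged 364 ± 71.9 on Spdef -/- and 151 ± 20.2 on Spdef +/+ arrays (SD, n = 3 each), 2.40-fold higher (adjusted p = 0.00215, limma). Its receptor Ltbr averaged 819 ± 26.5 on Spdef -/- and 673 ± 36.7 on Spdef +/+ arrays (SD, n = 3 each), 1.22-fold higher (adjusted p = 0.0295, limma), a call lost without a filter and without any single array other than Spdef -/- replicate 3, at up to 0.0879. Eda2r, an ectodysplasin receptor, was 1.95-fold lower (adjusted p = 0.0266, limma), a call lost without a filter and without Spdef -/- replicate 1 or 2 or Spdef +/+ replicate 1 or 2, at up to 0.0852. Lta and Eda were Absent on all arrays.

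Of 21 adaptors and mediators of death signalling, 20 were tested, 8 were higher and 2 lower, with a median log2 difference of 0.03 against -0.06 over all tested genes, of which 15.8% were higher and 24.0% lower. Without Spdef +/+ replicate 1 the counts were 5 higher and 1 lower, and leaving out any other array except Spdef -/- replicate 3 also gave 1 lower. Ripk3, the kinase that drives necroptosis, averaged 195 ± 9.90 on Spdef -/- and 52.3 ± 2.09 on Spdef +/+ arrays (SD, n = 3 each), with no Present call in Spdef +/+. The fitted difference was 3.72-fold upward (adjusted p = 6.3e-05, limma), and Ripk3 entered the test through its Spdef -/- calls alone. With Present calls required on at least 4 arrays, 7 of 19 tested genes of this list were higher and 2 lower. The adaptor Traf2 was 1.44-fold higher (adjusted p = 0.00207, limma) and the adaptor Traf1 1.70-fold higher (adjusted p = 0.00404, limma). Bid, which links death receptors to mitochondria, was 1.56-fold lower (adjusted p = 0.00454, limma).

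Of the 25 genes of the NF-kappaB list, all were tested, 5 were higher, 2 lower and 18 did not pass, with a median log2 difference of 0.12, where 15.8% of all tested genes were higher and 24.0% lower. The counts were 3 higher and 1 lower without a filter and without Spdef +/+ replicate 1 or 2, 5 higher and 1 lower without Spdef -/- replicate 2, and 6 higher and 4 lower without Spdef -/- replicate 3. Bcl3, a nuclear partner of NF-kappaB, was 2.60-fold higher (adjusted p = 0.000810, limma). Tnfaip3, the deubiquitinase A20 that limits signalling downstream of TNF receptors, averaged 573 ± 272 on Spdef -/- and 151 ± 8.31 on Spdef +/+ arrays (SD, n = 3 each), 3.52-fold higher (adjusted p = 0.00523, limma). Nfkb1 was 1.32-fold higher (adjusted p = 0.0101, limma). The inhibitor Nfkbie was 1.70-fold higher (adjusted p = 0.0174, limma), a call lost without a filter (0.0514) and without Spdef +/+ replicate 1 (0.0573) or 2 (0.0518). Ikbkg, the regulatory subunit of the IkappaB kinase, was 1.42-fold lower (adjusted p = 0.0121, limma), and with the mean of its probe sets the sign turned, at 0.08 on the log2 scale (0.679).

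Of 4 genes of ectodomain shedding, which releases TNF and its receptors from the membrane, 3 were tested. Among all tested genes, 15.8% were higher and 24.0% lower. The sheddase Adam17 was 1.36-fold higher (adjusted p = 0.00628, limma) and its partner Rhbdf2 1.38-fold higher (adjusted p = 0.0117, limma). Rhbdf1 was 1.28-fold lower (adjusted p = 0.0241, limma), a call lost without a filter, with centring, and without Spdef +/+ replicate 1 or 3, at up to 0.0784. Adam10 was Absent throughout.

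The last list held genes known to be induced by TNF. Of its 19 genes, 13 were tested, 8 were higher and none lower, with a median log2 difference of 0.90, and 5 were Absent on all 6 arrays (Ccl2, Ccl20, Il6, Csf2 and Nos2). By the same test, 15.8% of all genes were higher. Cxcl2 and Ptgs2 entered the test through their Spdef -/- calls alone. Fitted without a filter, 6 of the 19 were higher, where 8.10% of all genes were, and with Present calls required on at least 4 arrays 6 of 9 tested were. Tnfaip2 averaged 2554 ± 692 on Spdef -/- and 284 ± 78.2 on Spdef +/+ arrays (SD, n = 3 each), 9.01-fold higher (adjusted p = 0.000487, limma), and 5.19-fold with the mean of its probe sets. The neutrophil chemokine Cxcl1 was 3.50-fold higher (adjusted p = 0.000778, limma) and the adhesion molecule Vcam1 2.72-fold higher (0.00238).

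Cxcl2, a second neutrophil chemokine, averaged 845 ± 876 on Spdef -/- and 13.4 ± 1.99 on Spdef +/+ arrays (SD, n = 3 each), with no Present call in Spdef +/+. The fitted difference was 41.5-fold upward (adjusted p = 0.00299, limma). Its size was uncertain, at 22.7-fold without Spdef -/- replicate 1, 74.0-fold without Spdef -/- replicate 3 and 13.2-fold with 32 added to every signal. Lcn2, an antibacterial siderophore-binding protein, was 5.49-fold higher (adjusted p = 0.00119, limma). Icam1, Sod2 and Tnfaip8 from the same list did not pass (adjusted p = 0.982, 0.125 and 0.294, limma). Several genes of this list are also expressed by neutrophils, whose tested markers were also higher. Of 7 neutrophil markers 5 had a named probe set and 3 were tested, all higher, and Cxcr2 was Absent throughout. By the same test, 15.8% of all genes were higher. With Present calls required on at least 4 arrays, Csf3r was no longer tested, and 2 of 2 tested markers were higher. S100a9 averaged 3456 ± 1639 on Spdef -/- and 78.5 ± 11.9 on Spdef +/+ arrays (SD, n = 3 each), and the markers summed to 3566 to 8915 on Spdef -/- and 202 to 239 on Spdef +/+ arrays. The part of neutrophils in these values, and which cells gave the S100a9 signal, was not tested.

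**Figure D5:**
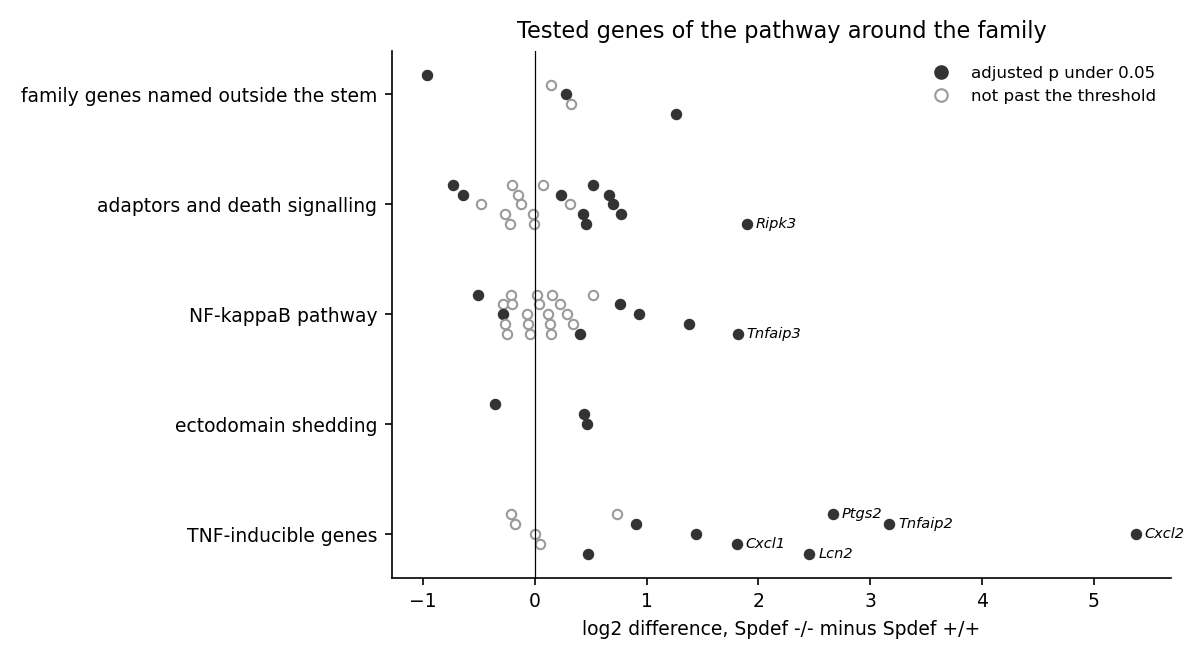
Log2 difference, Spdef -/- minus Spdef +/+, of each tested gene in 5 lists around the family, one row per list, with points spread vertically for legibility only. Filled points passed the adjusted p threshold of 0.05, and genes beyond 1.5 in either direction are named; the TNF-inducible genes have 8 filled points, all to the right of 0, and Ripk3, Cxcl2 and Ptgs2 are drawn at fitted values although no Spdef +/+ array called them Present.

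Markers of the other cell types that the captured tissue could hold are given as counts of calls and as sums of signals per array. Beside all these counts, 15.8% of all tested genes were higher and 24.0% lower. Of 10 macrophage and dendritic cell markers, 8 were tested, 1 was higher (Itgax) and 1 lower (Cd163), Cd207 was Absent throughout, and the sums ran from 4165 to 5992 on Spdef -/- and from 4191 to 6404 on Spdef +/+ arrays. Of 6 endothelial markers 5 were tested, 1 was higher (Vwf) and 1 lower (Kdr), with sums of 714 to 789 on Spdef -/- and 653 to 877 on Spdef +/+ arrays. Of 9 surface and basal epithelial markers 5 were higher and none lower, with sums of 79493 to 86134 on Spdef -/- and 63891 to 64772 on Spdef +/+ arrays. Only 3 were higher without a filter or without any single array other than Spdef -/- replicate 3. Of the corneal markers Krt12 and Aldh3a1 neither passed, and their sums were 10592 to 13348 on Spdef -/- and 15076 to 19726 on Spdef +/+ arrays. Aldh3a1 lay near the threshold (adjusted p = 0.05345, limma), over a range of 0.0129 to 0.13. It was called lower without Spdef -/- replicate 2, with Present calls required on at least 4 arrays and after quantile normalization. The same held with 32 added to every signal, with trended and robust variance estimates and with array weights. Of 4 melanocyte markers 2 were tested and Dct was lower, with sums of 133 to 214 on Spdef -/- and 127 to 202 on Spdef +/+ arrays and Mlana Absent throughout. Of 3 skeletal muscle markers 1 was tested and did not pass, with sums of 137 to 169 on Spdef -/- and 118 to 317 on Spdef +/+ arrays and Des Absent throughout. The calls of Itgax, Kdr and Dct were each lost without at least 1 of the arrays.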

How the data were processed

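The deposited intensity values are linear dChip signals, 1 per probe set and array, made by the authors per the file headers. Quartiles of the 6 arrays lie close together, and no source used here gives the methods of normalization, background correction or detection calls. The authors' deposited comparison table holds score values (means, folds) and a p-value for 153 probe sets. The second deposited signal table held the same values.

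Probe sets took symbols by gene ID (36239), by 1 of several IDs (609) or by accession (61) from a GRCm38.p6 gene table; 585 matched several genes and 7543 none. Signals were floored at 1 and log2-transformed. Genes with a probe set Present on 3 or more of 6 arrays (11899) were tested on the brightest such probe set, with limma 3.58.1 in R 4.3.3 (lmFit, eBayes, 2-sided, Benjamini-Hochberg over all tested genes, threshold 0.05). The number of arrays limits the precision; the median residual SD was 0.139 on the log2 scale. Folds are differences of mean log2 signals. Where a genotype had no Present call, each of its signals was taken as no less than the dimmest Present signal of that array. Those dimmest signals were 1.57 to 3.75, and much brighter signals were also called Absent, so such a fold is an estimate and no lower limit.

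The family, pathway and marker lists, and the rule for named genes (every member, up to 5 called genes of each pathway list and 3 of each marker list by smallest p; others named were chosen after their values were seen), were chosen with earlier results of these data known. Tnfsf13os and 5 other members have no probe set of their own. The procedure was tested on simulated data. The labels name no pairing of same-numbered arrays, so no block was used in the main fit. Deviations of same-numbered arrays correlated at r = -0.013, -0.09 and -0.084, which with 3 arrays per genotype cannot exclude a pairing. Alternatives were filters, quantile normalization, centring, a floor of 16, a pseudocount of 32, variance models (statmod 1.5.0), the replicate block, mean probe sets, another call rule and leaving out each array; shared probe sets and probe sets singly were added after the data were seen.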

Additional observations from a re-analysis of the deposited data

How the results depend on the processing

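Tnfrsf18, Tnfrsf19, Tnfsf10, Tnfrsf1a, Tnfrsf12a and Tnfrsf23 kept their direction and call under every alternative filter, scaling, floor, variance model and left-out array. Over alternatives and single probe sets, 264 member results kept direction and side of the threshold, 15 lost and 6 gained a call, and 1 reversed (Tnfrsf11a without a filter, -0.313512 on the log2 scale). For genes of the other lists these were 812, 81, 6 and 1 (Ikbkg with the mean of its probe sets, 0.0837504). The 812 also hold results whose sign changed without a call on either side, as for Acta1, at -0.0995 to 0.2437 on the log2 scale. Leaving out 1 array gave 6 to 9 members higher and 2 lower, 1277 to 1825 genes higher and 1850 to 2734 lower, and 2 to 8 pathway genes lower. Requiring a 3-fold difference and an unadjusted p up to 0.01 gave 225 genes higher and 202 lower, 2 members higher and 1 lower, 7 pathway genes higher and 0 lower, and 4 marker genes higher and 7 lower. In the main analysis 6 pathway genes were lower, and 3 were without a filter. The labels do not say whether the same replicate numbers pair the arrays. With the replicate block 8 members were higher and 2 lower, 1473 genes were higher and 2200 lower, 21 pathway genes were higher and 2 lower, and the calls of Ltbr (adjusted p = 0.0769, limma), Eda2r (0.0762), Rhbdf1 (0.0728), Itgax (0.0770), Kdr (0.0599) and Dct (0.0695) were lost, with 3 epithelial markers higher. Members higher numbered 6 with either stricter filter and 10 without one, of which 4 were Absent on all 6 arrays, over 8.10% of 18096 genes higher and 11.1% lower. Dim signals limit what can be said of 19 members, since 1 array's lowest Present signal was 1.57 while a signal of 73.6 could be Absent.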
